A study of Homo sapiens with 36 samples.

Results

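The data described here are the PAR-CLIP clusters that a FLAG immunoprecipitation (IP) recovered from cells without any FLAG-tagged protein. They were called for the parental HEK293 Flp-in T-Rex line, an established line derived from human embryonic kidney cells. The FLAG IP of these cells (control IP) and the input taken from the same extracts before the IP (parental input) gave 3 cluster lists each, chosen by their labels and paired by replicate number. Each list combines the reads of a soluble and a chromatin library, so the 6 lists stand for 12 of the 36 libraries of the study. The control IP lists held 13573 clusters and the parental input lists 22140, out of 278185 clusters in the 18 lists of the series. The other lists come from the FLAG-SCAF4 and FLAG-SCAF8 lines, HEK293 Flp-in T-Rex cells that carry an integrated doxycycline-inducible transgene and were derived as single clones. All lines are labelled wild-type for genome editing, were grown overnight in 100 μM 4-thiouridine (4SU), pulsed with 500 μM 4SU for 2 h and irradiated at 365 nm with 2000 J/m2. The labels name doxycycline, at 100 ng/mL, for the tagged lines alone, whereas the methods describe it for the parental line as well.

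In PAR-CLIP, 4SU is built into new RNA in place of uridine, and irradiation with long-wave UV links it to proteins in direct contact. Linked 4SU is read as C in place of T, and a cluster is a stretch of overlapping reads with enough such transitions. Protein-bound RNA of all kinds carries these transitions in an extract, so clusters of an input show where crosslinked RNA is abundant. A mock IP with the same antibody gel, elution with FLAG peptide and RNase I digestion, but without the tag, shows which of this RNA stays with the gel. Background of this kind commonly holds abundant RNAs such as rRNA, snRNA and mRNA.

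The sequences below are the short middle stretches (30 nt or fewer, RNA sense, GRCh38) of regions that held clusters in all 3 control IP lists. Capital T marks each position at which 4SU could have been built in. The first set shows regions that held no cluster in any parental input list, in genes with more clusters per 1000 than in the inputs. ACTN4 encodes an actin-crosslinking protein and ZNF331 a zinc finger protein.
ACTN4, coding exon 2 of 21, chr19:38700653-38700682, plus strand: gaacaTTgaTgaggacTTccgagacgggcT
ZNF331, 5′ UTR of the longest isoform, chr19:53521520-53521549, plus strand: gTgTgTgTagacgTcTaTgagggccaTagc
The second set shows the 4 regions of 1 intron of MAPK8IP3, which encodes a scaffold protein of stress kinase signalling, because they look alike. These regions held clusters in all 6 parental lists.
MAPK8IP3 region A, intron, chr16:1735709-1735738, plus strand: gagcaTccgTgTgaccgTccaTgTgagagT
MAPK8IP3 region B, intron, chr16:1736267-1736296, plus strand: TgTgaccaTccaTgTgagcaTccgTgTgac
MAPK8IP3 region C, intron, chr16:1737065-1737094, plus strand: cgTgTgagcgTgTgaccgTccgTgTgagTg
MAPK8IP3 region D, intron, chr16:1740028-1740057, plus strand: gTgTgaccgTccgTgTgagcaTccgTgTga
The last sequence is from a coding exon of EIF3A, a subunit of the translation initiation factor eIF3, which had 1 of the largest scaled excesses over the inputs. This region held clusters in all 6 parental lists.
EIF3A, coding exon 19 of 22, chr10:119042057-119042086, minus strand: aTgaTcgccTTTcaagacgTgcTgaTgaTg
The letters GTGTGA recur in all 4 MAPK8IP3 sequences. Over their full lengths of 603, 1035, 851 and 2625 nt, the 4 regions held 32, 75, 60 and 184 copies on the transcribed strand, which is 5.31 to 7.25 copies per 100 nt. Among the 744 regions found in all 3 control IP lists, 41 (5.51%) held the word in the 100 nt around their middle, all 4 MAPK8IP3 regions included. The word was chosen after the sequences had been seen, and such a repeat leaves the placement of reads uncertain.

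The control IP gave fewer clusters than its own input in every replicate. Control IP replicates 1, 2 and 3 held 9638, 2314 and 1621 clusters, and the parental inputs 12493, 4567 and 5080. The mean log2 difference was −1.0, which did not pass a two-sided exact permutation test (p = 0.3, with 0.1 the smallest p that 3 against 3 lists can give). IP lists of the tagged lines held 18287 to 54404 clusters. Clusters covered 1682022, 354515 and 244943 nt in the control IP lists and 2091446, 687393 and 769493 nt in the inputs. Reads were 100 nt long for replicate 1 but 75 nt for the other 2, and median cluster lengths of 153, 130 and 125 nt in the control IP followed those of the inputs (148, 126 and 128 nt). The lists hold no read counts, so their depth is unknown. Of genes that HEK293 cells are known for, the intermediate filament gene VIM held 3, 1 and 0 clusters in the control IP lists and 3, 0 and 2 in the inputs, the keratin gene KRT8 held 1, 1 and 0 in both groups and KRT18 1 cluster in control IP replicate 1, while NEFM, NEFL and INA held none. Markers of liver, blood, fibroblasts and glia (ALB, HBB, PTPRC, CD3E, COL1A1 and GFAP) held no cluster in any of the 6 lists.

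Control IP clusters lay mainly in exons, and above all in coding exons, where the inputs were rich in introns. Coding exons held 29.6, 31.8 and 25.5% of the control IP clusters, against 17.3, 15.4 and 14.7% in the inputs. The groups did not overlap, and the means were 29% ± 3.16 (SD, n = 3) and 15.8% ± 1.32. Introns held 19.0, 9.85 and 22.8% of the control IP clusters and 35.8, 31.4 and 33.8% of the input clusters, a mean difference of −16.5 percentage points. Despite the shorter lists, the control IP held slightly more coding exon clusters than the inputs in total, 4006 against 3604, but far fewer intron clusters, 2428 against 7624. Replicate 1 supplied 2857 of the 4006, and in replicate 3 the control IP had fewer coding exon clusters than its input (414 against 748).

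Other features were divided between the groups in the same way. The 5′ UTR held 2.25, 2.07 and 1.54% of control IP clusters and 1.01, 1.01 and 1.04% of input clusters. Clusters outside annotated genes took 9.12, 9.77 and 10.4% in the control IP and 10.8, 15.8 and 15.6% in the inputs. Exons of isoforms without a coding region, in protein-coding genes, took 11.7, 13.1 and 13.8% against 9.51, 10.0 and 9.78%. For each of these, the 3 control IP values and the 3 input values did not overlap. The 3′ UTR was different, with 16.5, 13.7 and 7.16% in the control IP and 16.5, 12.7 and 11.6% in the inputs, so that the groups overlapped. Each nonoverlapping difference had the smallest p possible in the two-sided exact permutation test (p = 0.1, and 0.156 after Benjamini-Hochberg adjustment over 14 feature measures), so that 3 against 3 lists cannot pass 0.05.

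**Figure D1:**
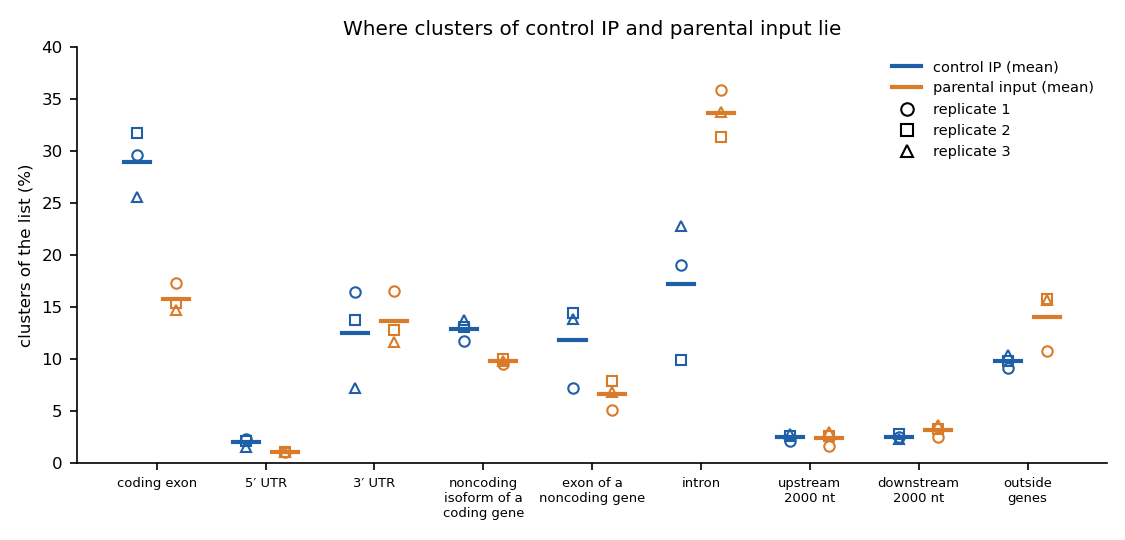
Percentage of the clusters of each list (vertical axis) in each annotated feature (horizontal axis), with control IP in blue, parental input in orange, symbols for the 3 replicates and bars for the means. All 3 control IP lists lie above the inputs in coding exons and below them in introns, while the 3′ UTR values overlap.

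All 9 inputs of the series, which include those of the tagged lines, gave a larger comparison. The lines differed: coding exons took 14.7 to 17.3% of the parental inputs and 16.5 to 25.4% of the tagged ones. Introns took 31.4 to 35.8% and 19.4 to 30.1%. The test treats the 9 inputs as 1 group and ignores line and replicate pairing. Its p-values therefore do not measure the spread of parental replicates alone, here and wherever all 9 inputs are used. Their coding exon shares ran from 14.7 to 25.4%, and all 3 control IP lists lay above them (mean difference 9.02 percentage points, exact permutation test, p = 0.00455, adjusted p = 0.0318). Intron shares ran from 19.4 to 35.8% in the 9 inputs, with control IP replicates 1 and 2 below that range and replicate 3 within it (mean difference −9.46, exact permutation p = 0.0409, adjusted p = 0.0848). Clusters that crossed an exon-intron boundary took 21.9, 14.9 and 21.1% of the control IP lists and 10.0 to 14.7% of the 9 inputs (mean difference 6.3, exact permutation p = 0.00455, adjusted p = 0.0318). With 1 canonical isoform per gene, coding exons took 40.3, 43.5 and 37.7% of all control IP clusters, against 23.6, 22.1 and 20.9% in the parental inputs.

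Within mRNAs and introns, the control IP clusters also lay at other places than those of the inputs. Exonic clusters of coding mRNAs were divided by position along the spliced mRNA into 3 equal parts. The first part, nearest the cap, held 45.7, 46.9 and 53.3% in the control IP and 39.2, 39.9 and 40.9% in the parental inputs, and the last part held 21.6, 20.3 and 15.5% against 26.2, 25.7 and 23.9%. Against all 9 inputs, the first part was higher by 8.27 points and the last lower by 6.41 (exact permutation p = 0.00455 for each, adjusted p = 0.0164). Intron clusters of the control IP were near splice sites more often. Those within 100 nt of an exon made up 14.7, 14 and 23.9% of intron clusters in the control IP but 4.94, 4.47 and 5.25% in the parental inputs, and 4.47 to 6.3% in all 9 inputs (mean difference 12.2 points, exact permutation p = 0.00455, adjusted p = 0.0164). The introns hit were shorter as well, with median lengths of 6701, 6779 and 4463 nt against 10020, 8856 and 8346 nt in the parental inputs.

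The preference for exons was also seen within the same genes. In all, 498 genes held a cluster in each of the 6 lists, and their clusters lay in coding exons in 30.1, 32.9 and 27.9% of cases in the control IP and in 21.8, 22.1 and 20.6% in the inputs. Their intron shares were 22.7, 15.1 and 22.4% against 35.0, 32.1 and 32.9%. In the 381 of these genes that code for protein, coding exons took 34.6, 42.9 and 37.9% of control IP clusters and 24.2, 26.6 and 24.7% of input clusters. The groups did not overlap for any of these shares (exact permutation p = 0.1, the smallest possible).

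Control IP clusters were richer in C and poorer in A and T than input clusters. Mean T content was 26.1, 24.6 and 24.9% in the control IP and 29, 26.5 and 26.2% in the parental inputs. The trinucleotide CGG occurred in the middle 100 nt of 46.8, 54.4 and 51.2% of control IP clusters and 33, 42 and 41.6% of input clusters. It was higher than in all 9 inputs by 11.1 points (exact permutation p = 0.00455, adjusted p = 0.0118). AATAAA, the letters of the canonical polyA signal, occurred in 2.73, 1.95 and 2.59% against 4.35, 4.25 and 4.29%, and ATTTA, the core of AU-rich elements, in 7.0, 6.27 and 6.72% against 12.9, 10.5 and 9.51%. Purine-rich GAAGAA, a word of exonic splicing enhancers, was found in 10.5, 12.1 and 13.1% against 9.0, 9.09 and 8.80%. All words were read on the transcribed strand, and they can overlap each other. Among coding exon clusters alone, T content was 23.3, 22.0 and 21.6% against 24.5, 22.9 and 22.5% and CGG was present in 53.0, 58.1 and 56.0% against 48.2, 53.5 and 54.8%, so that both groups overlapped (exact permutation p = 0.3 for each). In coding exon clusters, GAAGAA occurred in 16.1, 19.9 and 22.5% against 15.4, 16.4 and 18.3%. These groups overlapped too (exact permutation p = 0.3). Against all 9 inputs, this difference was 3.59 points (exact permutation p = 0.0136, adjusted p = 0.0351). Among intron clusters, CGG was present in 36.9, 48.7 and 38.5% against 24.0, 32.2 and 31.4%, with no overlap.

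By class of RNA, the control IP resembled the inputs more than by feature. Protein-coding genes held 79.5, 70.3 and 69.3% of control IP clusters and 79.9, 70.6 and 71.7% of input clusters. Pseudogenes, many of which are copies of abundant mRNAs, held 4.62, 6.87 and 4.57% against 3.07, 3.94 and 3.41%, with no overlap between the groups. Reads of a pseudogene and of its parent gene cannot always be told apart. Small noncoding RNA genes took 2.42, 6.22 and 6.54% against 1.87, 3.55 and 3.31%, and lncRNA genes 4.12, 6.61 and 8.95% against 4.23, 5.85 and 5.81%, and for both the groups overlapped. Within pairs, the control IP exceeded its own input by 0.55, 2.68 and 3.23 points for small RNA genes. For lncRNA genes the paired differences were −0.12, 0.77 and 3.14 points. No cluster lay on the mitochondrial chromosome in any list, although pseudogenes of mitochondrial DNA held clusters in all 6.

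The larger share of small RNAs did not come with more small RNA genes. The control IP lists held clusters in 192, 123 and 89 small RNA genes, and the inputs in 192, 138 and 138. These genes held 233, 144 and 106 clusters in the control IP and 233, 162 and 168 in the inputs, so that the larger share went with shorter lists and not with more clusters. Of 286 small RNA genes with a cluster, 74 were present in all 3 control IP lists, and 73 of these were also in an input. Among them were 22 of 36 genes and copies of 5S rRNA, 13 of 20 of U2 and 6 of 20 of U1, the snRNAs that recognise branch points and 5′ splice sites. U5 had 3 of 7, 7SK, which holds the elongation factor P-TEFb inactive, 5 of 15, and 7SL, the RNA of the signal recognition particle, 6 of 14. No gene of U4 or U6 snRNA was in all 3 control IP lists, and the RNAs of RNase MRP and RNase P, RMRP and RPPH1, were absent from replicate 3. Copies within these families are near-identical, so the assignment of their reads is uncertain. RN7SK was covered over 100, 97.6 and 100% of its length in the control IP and 100, 96.0 and 99.1% in the inputs. The box C/D snoRNA gene SNORD21, chosen for mention after its values were seen, was the small RNA gene that held 1 cluster in each control IP list and none in the inputs.

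The 45S pre-rRNA was covered in all 6 lists, and control IP replicate 3 covered less of its 18S and 28S parts and of its 5′ external spacer than its input in all 3 annotated copies. In the 45S copy RNA45SN2 on chromosome 21, clusters covered 100, 98.9 and 89.5% of the 18S part in the control IP and 100, 98.2 and 100% in the inputs. The 28S part was covered over 68.5, 65.5 and 60.8% against 69.5, 57.6 and 68.5%. The 5′ external spacer, which is removed during rRNA maturation, was covered over 51.7, 17.3 and 25.2% in the control IP and 50.6, 43.7 and 44.4% in the inputs, with overlap between the groups through replicate 1. The near-identical copies RNA45SN1 and RNA45SN3 had spacer coverages of 49.3, 20.8 and 18% and 50.8, 21.2 and 23.4% in the control IP. Their inputs were at 39.4, 38.9 and 34.0% and at 41.0, 19.0 and 39.2%, so that in replicate 2 the control IP was below its input in RNA45SN1 and RNA45SN2 but not in RNA45SN3. In replicate 3, the 18S parts of RNA45SN1 and RNA45SN3 were covered over 88.8 and 85.9% in the control IP and 99.5 and 95.9% in the input, and their 28S parts over 58.2 and 59.3% against 69.4 and 69.7%. The whole rDNA locus held 0.820, 2.85 and 4.01% of control IP clusters and 0.560, 1.51 and 1.24% of input clusters. The groups overlapped, although the control IP was higher than its own input in every pair.

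XIST, the lncRNA that coats the inactive X chromosome, held more clusters than any other gene in each control IP list. It held 48, 51 and 56 clusters in the control IP and 16, 42 and 47 in the inputs, more in all 3 pairs although the control IP lists were shorter. Yet these clusters covered less of the RNA. Over the joined exons of its canonical isoform (19245 nt), clusters covered 97.9, 69.9 and 75% in the control IP and 98.9, 95.8 and 95.4% in the inputs. The median cluster there was 753, 260.5 and 257 nt long in the control IP and 2292, 746 and 732.5 nt in the inputs, so that the greater number of clusters went with shorter ones. The difference in coverage was largest in the last of 4 equal parts, nearest the 3′ end, where the control IP covered 96.7, 27.4 and 46.0% and the inputs 99.4, 90.3 and 89.9%. The first part was covered over 97.7, 87.3 and 92.7% against 96.5, 94.2 and 96.3%.

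**Figure D2:**
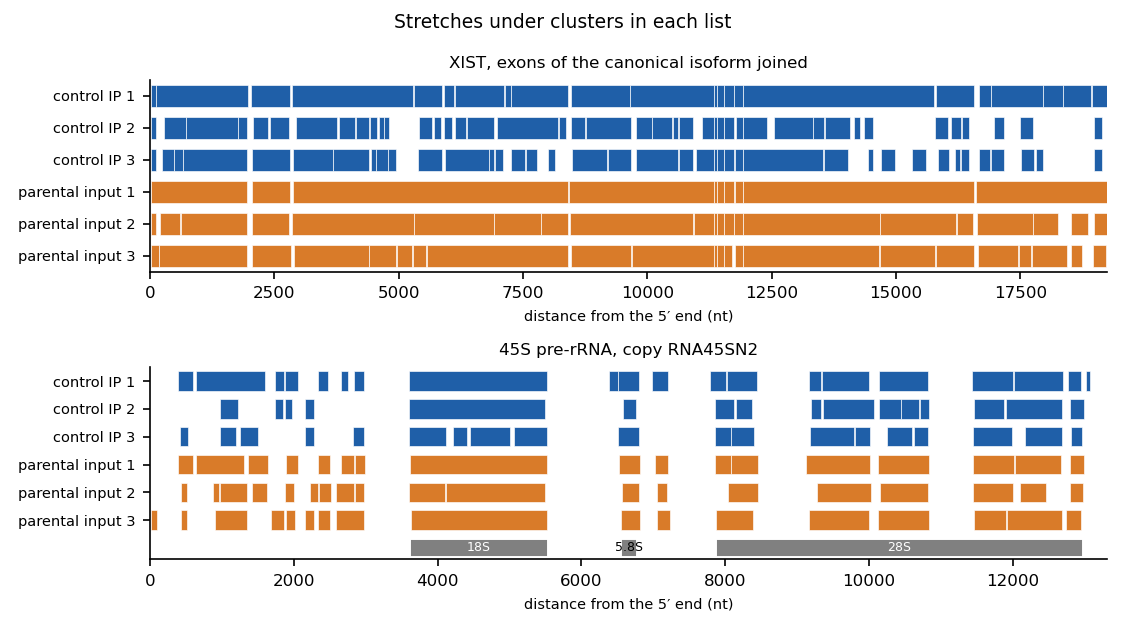
Stretches of XIST (top, canonical exons joined) and of the 45S pre-rRNA copy RNA45SN2 (bottom, grey bars for the mature rRNAs) that lay under a cluster in each of the 3 control IP lists (blue) and 3 parental input lists (orange), by distance from the 5′ end in nt. Control IP replicates 2 and 3 have gaps near the 3′ end of XIST and in the 5′ external spacer, while 18S is covered over at least 89.5% in all 6 lists.

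Other long nuclear RNAs were divided in part like XIST. MALAT1, an abundant lncRNA of nuclear speckles, held 9, 16 and 14 clusters in the control IP and 4, 15 and 12 in the inputs, but coverage of 58.8, 39.3 and 36.6% against 65.1, 57.3 and 58.9%. The covered shares were lower in the control IP in all 3 pairs, with overlap through replicate 1. NEAT1, the scaffold of paraspeckles, was covered over 17.8, 0.484 and 1.05% against 30.8, 5.13 and 6.20%, lower in all 3 pairs as well.

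Several protein-coding genes were among the genes with the most control IP clusters. SRRM2, a scaffold protein of nuclear speckles, held 16, 15 and 15 clusters in the control IP and 18, 19 and 17 in the inputs. SON, another speckle protein, held 19, 11 and 9 against 29, 16 and 11, HNRNPH1, an hnRNP protein that binds G-rich RNA, 16, 7 and 15 against 19, 20 and 17, and NONO, a paraspeckle protein, 13, 9 and 6 against 12, 7 and 11. The proliferation marker MKI67 held 21, 8 and 6 clusters against 25, 8 and 18. GPI, a glycolytic enzyme, held 24, 5 and 11 clusters against 25, 26 and 22, of which 33 of 40 in the control IP and 67 of 73 in the inputs were in introns. MAPK8IP3 held 10, 10 and 12 clusters against 11, 7 and 8, and 30 of the 32 control IP clusters and all 26 input clusters were in introns. For all of these genes the number of clusters per 1000 clusters of the list overlapped between the groups. The lncRNAs ENSG00000278996 and ENSG00000280441, which overlap 45S copies, were also among the genes with the highest mean, with 18, 15 and 17 clusters against 16, 17 and 16 and with 17, 16 and 14 against 17, 15 and 16.

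No gene was called in the comparison of the 3 control IP lists with the 3 inputs as unpaired groups. In a limma fit on log2(clusters per 1000 clusters of the list + 0.5) over 2285 genes with a cluster in at least 3 of the 6 lists, 0 genes were higher and 0 lower in the control IP at an adjusted p below 0.05. At an unadjusted p below 0.05, 150 genes (6.56%) differed, of which 48 (2.10%) were higher and 102 (4.46%) lower. The 3 control IP values lay above the 3 inputs in 78 genes (3.41%) and below them in 189 (8.27%). By covered length per 100000 covered nt of the list, the corresponding numbers were 79 (3.46%) and 217 (9.5%). Of the genes above, 9 had a cluster in all 3 control IP lists and in no input. Of those below, 67 had a cluster in all 3 inputs and in no control IP list. Such genes passed the filter of 3 lists through 1 group alone, so their values could not overlap. With the replicate number as a block, 1 gene was higher, XIST (log2 difference 1.56, SE 0.402, limma adjusted p = 0.0482), and 5 were lower, PTBP2, POLA1, SSU72, ARID1A and PPP2R2A. Without replicate 1, XIST and PRPF6 were called higher and PTBP2 and SLC7A1 lower among 989 genes. The XIST call concerns the number of clusters, and the covered length of XIST was lower than in the input in all 3 pairs (27201, 15155 and 17402 nt in the gene against 29312, 27023 and 26970 nt).

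Of the 10 genes furthest below the inputs, 5 were called with the replicate block. PTBP2, a neuronal splicing regulator, held 5, 0 and 1 clusters in the control IP and 31, 12 and 9 in the inputs (log2 difference −1.74, SE 0.439, limma adjusted p = 0.127 without the block and 0.00251 with it), and the groups did not overlap per 1000 clusters. Of its 52 input clusters, 47 were in introns. POLA1, the catalytic subunit of DNA polymerase alpha, held 4, 0 and 0 clusters against 35, 4 and 4, with 42 of 43 input clusters in introns (limma adjusted p = 0.00871 with the block). ARID1A, a subunit of the SWI/SNF chromatin remodeller, held 4, 0 and 0 against 24, 5 and 4, with 28 of 33 in introns (0.0117 with the block). PPP2R2A, a regulatory subunit of the phosphatase PP2A, held 4, 0 and 0 against 11, 7 and 4, with 21 of 22 in introns (0.0484 with the block). SSU72, a phosphatase of the RNAPII C-terminal domain, held 6, 0 and 0 against 10, 6 and 11, and here 13 of 27 input clusters were intronic (0.0117 with the block). POLA1, ARID1A, PPP2R2A and SSU72 had no cluster in the 2 shorter control IP lists, of 2314 and 1621 clusters. In lists so short, the lack of a cluster weighs little. Without replicate 1, these genes had clusters in too few lists to be tested.

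The remaining 5 of the 10 genes furthest below the inputs were not called in either fit. The amino acid transporters SLC7A1 and SLC38A1 held 12, 0 and 1 and 9, 0 and 2 clusters in the control IP, against 22, 10 and 11 and 21, 9 and 10 in the inputs. The tRNA exporter XPOT held 11, 2 and 0 against 23, 12 and 9, and TMEM242, a membrane protein, none against 3, 3 and 5. TMEM242 passed the filter through the inputs alone, so its lack of overlap was fixed in advance. The lncRNA ENSG00000260060 held 2, 0 and 0 against 5, 4 and 7, and 12 of its 16 input clusters lay in the flanks of the gene and none in introns. The few control IP clusters of the 10 genes lay in different features, all in introns for PTBP2 (6 of 6), POLA1 (4 of 4) and PPP2R2A (4 of 4) and mainly in exons for XPOT (12 of 13), SLC7A1 (9 of 13) and SLC38A1 (8 of 11), while ARID1A had 2 of 4 and SSU72 4 of 6 in exons.

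The genes furthest above the inputs carried their control IP clusters mostly in exons, and none was called in the fit of all replicates. Exons held 68.0% of all control IP clusters on average. Input clusters were mostly exonic too for EIF3A (12 of 13), RBM15 (7 of 10), ARHGDIA (5 of 5) and SRRT (2 of 2). They were less so for ACTN4 (3 of 5), PRPF6 (3 of 6) and ANAPC2 (0 of 3). SETDB1 and ZNF331 each held 1 input cluster, in an exon. EIF3A held 10, 4 and 5 clusters in the control IP, all 19 of them in coding exons, and 8, 2 and 3 in the inputs. PRPF6, a bridging protein of the spliceosomal tri-snRNP, held 6, 3 and 2 against 5, 0 and 1, with 10 of 11 in coding exons. RBM15, an adaptor of m6A RNA methylation, held 8, 6 and 2 against 7, 1 and 2, SRRT, a partner of the nuclear cap-binding complex, 3, 2 and 1 against 2, 0 and 0, and ACTN4 6, 2 and 2 against 4, 1 and 0. The others were SETDB1, a histone H3 lysine methyltransferase, with 5, 1 and 2 against 0, 1 and 0, ZNF331 with 3, 2 and 1 against 1, 0 and 0, and ARHGDIA with 5, 2 and 3 against 1, 2 and 2. ANAPC2, a subunit of the anaphase-promoting complex, held 4, 2 and 2 against 1, 1 and 1, 6 of the 8 in introns. BCLAF1P2, a processed pseudogene that shares sequence with BCLAF1, held 3, 1 and 1 against none. It passed the filter through the control IP lists alone, so its lack of overlap was fixed in advance. Log2 differences of these 10 genes lay between 0.92 and 1.16 (limma adjusted p = 0.654 for each).

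**Figure D3:**
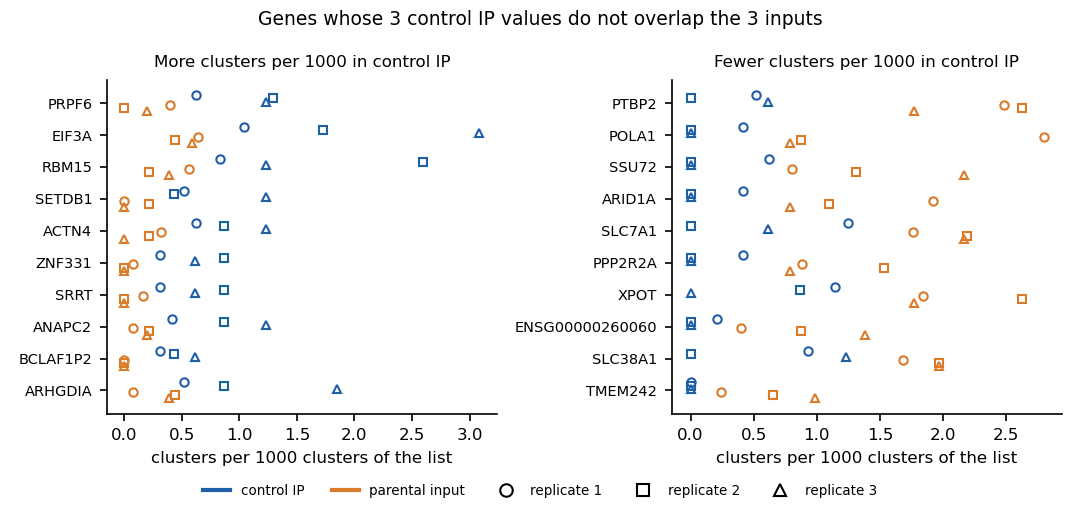
Clusters per 1000 clusters of the list (horizontal axis) in each control IP list (blue) and parental input list (orange), with symbols for replicates, for the 10 genes with the largest difference in each direction among those without overlap. Values of PTBP2 reach 2.63 in the inputs and stay at or below 0.617 in the control IP, and EIF3A reaches 3.09 in the control IP.

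Few genes held more clusters in absolute number in the control IP. In 23 of the 2285 genes (1.01%), the control IP exceeded its own input in all 3 pairs, while 441 (19.3%) were below it in all 3. By covered length, 59 genes (2.58%) exceeded the input in all 3 pairs. XIST and MALAT1 were among the 23, together with PRPF6, EIF3A, ACTN4, ZNF331, SRRT, ANAPC2 and BCLAF1P2 of the genes named above. Another was MTCO1P12, a nuclear copy of mitochondrial DNA, with 7, 6 and 7 clusters against 5, 5 and 5, whose reads may equally come from mitochondrial RNA. In all, 9 genes held a cluster in all 3 control IP lists and in no input list, 67 in all 3 inputs and no control IP list, and 498 in all 6 lists.

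No group of genes held a member called by limma at an adjusted p below 0.05, and the medians of the groups lay on both sides of that of all genes. Spliceosomal snRNA genes had 30 of 39 tested members above 0 and a median log2 difference of 0.37, beside 1050 of 2285 and −0.04 over all genes tested. The group of 7SL, 7SK, RMRP, RPPH1, TERC, Y and vault RNAs had 17 of 24 above 0 (median 0.37), and the giant genes, with very long coding regions, 8 of 10 (median 0.25). Nearly all genes of the snRNA and 7SL groups held 1 cluster or none per list (54, 31 and 27 clusters in 52, 31 and 26 snRNA genes of the control IP). With 1 cluster in every list, a gene lies above 0 through the shorter control IP lists alone. These counts and medians thus do not measure a greater recovery. SR splicing factors had 9 of 11 members above 0 (median 0.15), chaperones 11 of 16 (0.25), replication-dependent histones 20 of 31 (0.22) and translation factors 18 of 32 (0.11). Yet SR factors held 61, 15 and 14 clusters against 84, 25 and 25, and histones 46, 34 and 18 against 53, 39 and 40. Translation factors and giant genes were also below their input in every pair, whereas chaperones were not (70, 36 and 13 against 72, 34 and 31). List length thus enters these counts as well. Cytoplasmic ribosomal protein genes were evenly split, 31 above and 34 below (median −0.01), and their cluster shares were 1.99, 3.16 and 2.41% in the control IP and 1.83, 2.63 and 2.60% in the inputs. Genes of hnRNP proteins had 9 of 24 members above 0 (median −0.14), snoRNA host genes 3 of 11 (−0.26) and nuclear lncRNAs 1 of 4 (−0.50). Genes of RNAPII and elongation factors were the single group whose cluster share did not overlap between control IP and inputs (0.197, 0.303 and 0.185% against 0.136, 0.110 and 0.0591%), on 19, 7 and 3 clusters against 17, 5 and 3 (exact permutation p = 0.1, adjusted p = 0.48).

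A large part of the control IP clusters lay on a cluster of the matching input, and the rest were richer in coding exons. In replicates 1, 2 and 3, 49.8% (Wilson 95% interval 48.8 to 50.8), 58.9% (56.9 to 60.9) and 65.5% (63.1 to 67.7) of control IP clusters overlapped a cluster of their own input on its strand, with 1 shared nt as the minimum, which corresponded to 38.5, 28.7 and 19.9% of the input clusters. The intervals cover counting error only. When clusters scoring below their list median were left out, the shares of control IP clusters were 24.2, 25.7 and 32.8%, from lists that were shorter by construction. Control IP replicates 2 and 3 lay on clusters of the longer input of replicate 1 in 73.5 and 74.2% of cases. Control IP clusters apart from every parental input numbered 4013, 370 and 227, and 35.3, 46.2 and 33.9% of them were in coding exons. Clusters that overlapped their own input were in coding exons in 26.0, 25.2 and 21.3% of cases, so that even they exceeded the 14.7 to 17.3% of the inputs. Control IP replicates 2 and 3 lay on clusters of control IP replicate 1 in 81.9 and 82.9% of cases.

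Clusters of the 6 lists merged into 19590 regions, and those without control IP clusters held the largest share of introns. Regions in at least 1 control IP list numbered 9963 and were coding exons in 30.2% and introns in 18.9%, whereas the 9627 regions seen in inputs alone were coding exons in 9.90% and introns in 47.8%. At the extremes, 36 regions were in all 3 control IP lists and no input, 17 of them in coding exons and 3 in introns, and 261 were in all 3 inputs and no control IP list, 8 in coding exons and 130 in introns. Of the 36 regions, 33 lay in as many genes and 3 outside genes, with lengths of 83 to 479 nt, and ACTN4, MKI67, EIF3A and ZNF331 each held one. Others lay in coding exons of the RNA-binding proteins HDLBP, SFPQ and RBM33, the ribosomal protein RPL37, the lamin LMNB2, the DNA repair protein XRCC5 and the chromatin remodeller CHD1. These were named after their values were seen. Regions chain overlapping clusters, so the lists that hold a region need not share a base. The EIF3A region of 479 nt had no base under clusters of all 3 control IP lists.

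**Figure D4:**
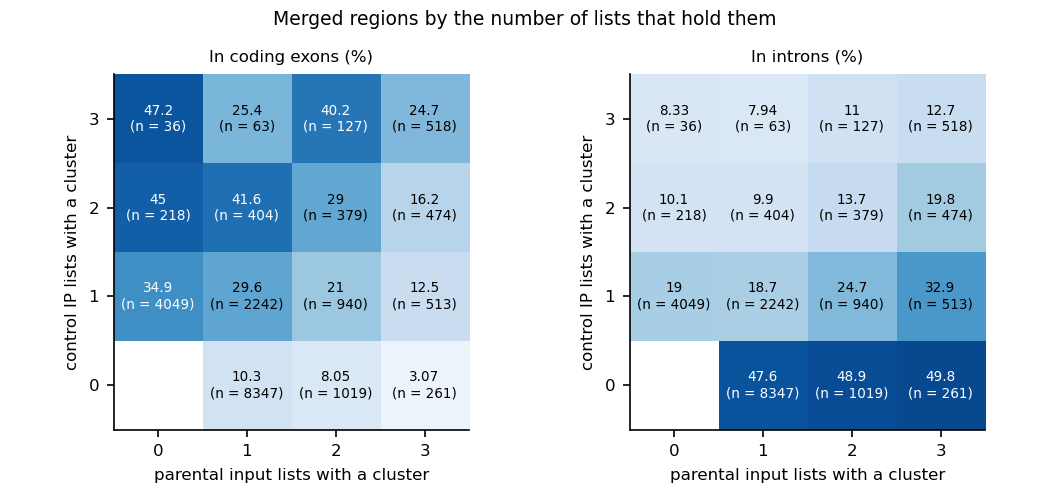
Merged regions by the number of control IP lists (vertical axis) and parental input lists (horizontal axis) that held them, with the percentage in coding exons (left) and in introns (right) and the number of regions in each field. Coding exons take 47.2% of the 36 regions in 3 control IP lists and no input and 3.07% of the 261 regions in 3 inputs and no control IP list.

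All 36 regions also held clusters in IP lists of the tagged lines, 23 of them in all 6. In inputs of the tagged lines, 28 of the 36 held a cluster and 8 did not. The ACTN4 region shown above was in 5 of these inputs. Of the 744 regions found in all 3 control IP lists, 691 (92.9%) held clusters in all 6 IP lists of FLAG-SCAF4 and FLAG-SCAF8. Those lists are far longer, which raises such overlap.

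The difference between IP and own input was compared with that in the tagged lines. The test pools the pairs of the FLAG-SCAF4 and FLAG-SCAF8 lines as if they were replicates of a single group. Tag, clone and labelled doxycycline go with the line and cannot be told apart. For coding exons, the shift was 12.4, 16.4 and 10.8 percentage points in the parental line and 4.28 to 14.9 in the 6 tagged pairs, with no detectable difference (exact permutation over 9 pairs, p = 0.393). The introns were unlike: the shift was −16.5 points on average in the parental line and −5.27 to 6.74 in the tagged lines (difference −17.0, exact permutation p = 0.012, the smallest possible, adjusted p = 0.0281). The inputs differed too, with 31.4 to 35.8% in introns in the parental line and 19.4 to 30.1% in the tagged lines. The IP lists alone overlapped, with 9.85 to 22.8% against 18.8 to 26.4% (difference −6.50, exact permutation p = 0.0714, adjusted p = 0.12). The 3′ UTR share was lower than in the input in all 6 tagged pairs, with a mean shift of −6.86 points, against −1.19 in the parental line (difference 5.67, p = 0.012 by exact permutation, adjusted p = 0.0281). Between the IP lists alone, the 3′ UTR share differed by 0.832 points (exact permutation p = 0.738). Small noncoding RNAs and pseudogenes had mean shifts of 2.15 and 1.88 points in the parental line and negative shifts in every tagged pair, with differences of 3.77 and 2.77 (each with exact permutation p = 0.012, adjusted p = 0.0281). Clusters across an exon-intron boundary had a larger share in the IP in all 9 pairs, by 8.05 points on average in the parental line and 12.8 in the tagged lines (difference −4.75, exact permutation p = 0.0833). The tagged IP lists were far longer than the control IP lists, with a log2 shift in cluster number 2.90 higher on average, and the part of list length in these differences was not tested.

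**Figure D5:**
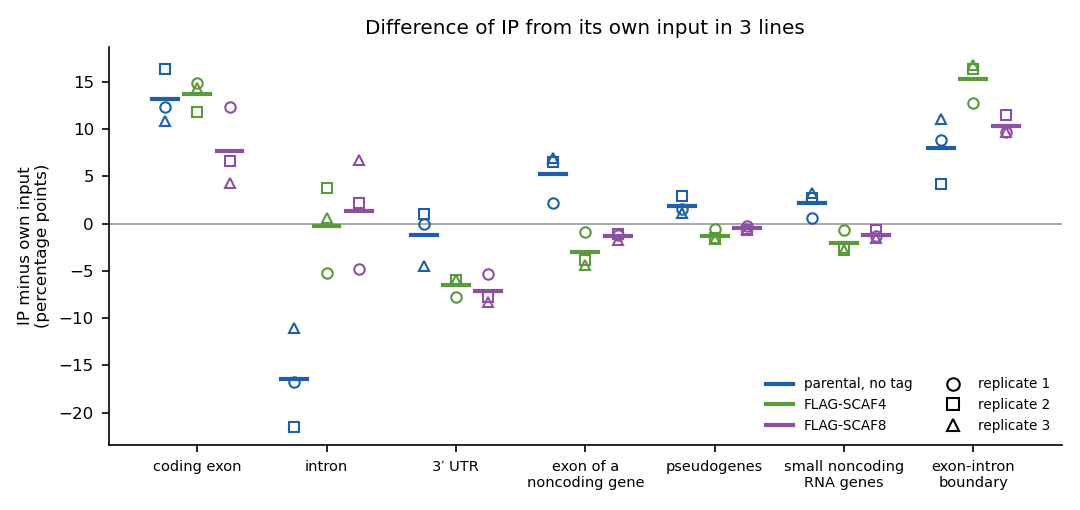
IP minus own input, in percentage points of the clusters of a list (vertical axis), for 7 groups of clusters (horizontal axis) in the parental line (blue), the FLAG-SCAF4 line (green) and the FLAG-SCAF8 line (purple), with symbols for the 3 replicates, bars for the means and a line at 0. Introns lie between −21.5 and −11.0 points in the 3 parental pairs, whereas the tagged pairs lie between −5.27 and 6.74.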

How the data were processed

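The authors demultiplexed reads with bcl2fastq 1.8, trimmed them with Trim Galore and cutadapt, aligned them to GRCh38 with Bowtie2 2.2.9, removed duplicates with Picard and called clusters with PARalyzer, after the soluble and chromatin reads of a replicate had been merged. Each deposited list gives cluster positions and an unnamed score between 0.5 and 1, with no read counts, so clusters were counted and the score served only for a filter. Lists hold clusters above the authors' minimum of reads and transitions, so absence from a list is no measure of absence from the RNA. Removal of duplicates and 75 or 100 nt reads can alter how long RNAs split into clusters.

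Each cluster was assigned by its midpoint and strand to 1 gene and its isoform of greatest exon length (GENCODE 44, same build), exons before introns, with 2000 nt flanks, and 45S parts came from RefSeq. Words were searched in 100 nt around the midpoint. Shares were compared by two-sided exact permutation over lists, and genes with limma 3.58.1 (R 4.3.3) on log2(clusters per 1000 + 0.5), with Benjamini-Hochberg adjustment. Other steps used Python 3.11.15 and scipy 1.17.1. The gene test was tested on simulated data. The 3 replicates are labelled as such and p-values measure the spread between them. Inputs were drawn from the extract that went into the IP, and lists were paired by number. Deviations from the group mean correlated at 0.398, 0.164 and 0.124 in same-numbered lists over 2285 genes, and at −0.246 to 0.0622 in other pairs. They sum to 0 within a group and replicate 1 was the longest list of both, so they cannot settle the pairing. Control IP replicate 2 lay on inputs 2 and 3 in 58.9 and 59.4% of cases, and replicate 3 in 62.9 and 65.5%. No more than 0.740% of the clusters of 1 list were identical in another.

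Genes named are the 12 with the highest mean in the control IP and the 10 with the largest difference in each direction without overlap, and a result and some sequences are not reported here. The members and lists were chosen with earlier results of these data known, and positions within mRNAs and introns, coverage, the canonical isoform, genes in all 6 lists and the repeat word were chosen after these lists had been examined. Alternatives were all 9 inputs, a score filter, other isoforms, flanks, pseudocounts, filters and measures, the replicate block and leaving out each replicate.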

Additional observations from a re-analysis of the deposited data

Results flagged for a closer look

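The shift from input to IP differed between the parental line and the tagged lines in 22 of 52 measures at the smallest p possible (exact permutation over 9 pairs, p = 0.012, Benjamini-Hochberg adjusted p = 0.0281 for each). Values below are the parental shift minus the mean tagged shift, in percentage points of clusters unless another unit is named, and all shares of a list are bound to each other. Feature shares differed most, by 20.1 for any exon, 24.7 for clusters wholly in exons, −17.0 for introns and −16.8 for clusters wholly in introns. The difference was 5.67 for the 3′ UTR, 4.56 for exons of coding genes in isoforms without a coding region and 7.40 for exons of other genes. By class, it was 2.18 for lncRNA genes, 3.77 for small noncoding RNA genes, 2.77 for pseudogenes and 2.14 for the rDNA locus. XIST differed by 1.81, spliceosomal snRNAs by 0.925, snoRNAs and scaRNAs by 0.458, 7SL, 7SK and similar RNAs by 0.535, nuclear lncRNAs by 0.569 and pseudogenes of mitochondrial DNA by 0.387. Among coding gene groups, histones differed by 0.763, translation factors by 0.997, chaperones by 0.839 and SR splicing factors by 0.580. The log2 number of clusters differed by −2.90, and its part in the other differences was not tested. Shifts also hold the differences between the inputs of the lines. The FLAG-SCAF4 and FLAG-SCAF8 pairs were pooled as if they were replicates of a single group. Line, clone, tag and labelled doxycycline differ together, so the p-values speak for these lines alone. Between control IP and tagged IP lists alone, any exon differed by 6.12, introns by −6.50 and the 3′ UTR by 0.832. These did not pass (exact permutation, adjusted p = 0.291, 0.12 and 0.834). Clusters wholly in exons (13.6), small noncoding RNA genes (4.03) and pseudogenes (2.00) did pass (exact permutation, adjusted p = 0.0269 for each).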

How the results depend on the processing

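The higher share of coding exons and the lower share of introns were among those of the 52 measures that kept their direction under all alternatives run. Tests of 3 against 3 lists cannot pass 0.05. Against all 9 inputs, several differences passed it before adjustment (exact permutation): log2 number −1.17 (p = 0.0455), T −2.17 (0.0409), any exon 11.9 (0.0318), coding exon 9.02 (0.00455), intron −9.46 (0.0409), boundary 6.3 (0.00455), small RNA 2.33 (0.0273), pseudogenes 1.37 (0.0455) and CGG 11.1 (0.00455). After adjustment, T (0.0542), any exon and intron (0.0848 each), small RNA (0.131) and pseudogenes (0.133) no longer passed, whereas log2 number, coding exon, boundary and CGG did. The 9 inputs pool the parental and the tagged lines as if they were replicates. In the same comparison, median length (−4 nt) and SR factors (−0.0465) reversed. No reversed difference passed a test, which 3 against 3 lists cannot do for shares, and some were as large as the values they replaced. The upstream share reversed with 500 nt flanks (−0.0701), the canonical isoform (−0.0717) and clusters of high score (−0.191). With clusters of high score, 3′ UTR was 1.01, protein-coding genes 2.17, 7SL and similar RNAs −0.114 (shift −0.0113), the T shift −0.266 and GPI 0.76. Covered nucleotides gave −0.158 for glycolysis. Without small RNA genes, protein-coding genes were at 0.617. With rDNA, XIST, MALAT1 and pseudogenes of mitochondrial DNA left out too, they were at 3.3, lncRNA genes at −1.06, nuclear lncRNAs at −0.130 and hnRNP genes at 0.0702.

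Leaving out 1 replicate at a time gave ranges that crossed 0 for the upstream share (−0.0630 to 0.279), 3′ UTR (−2.28 to 0.459), glycolysis (−0.0257 to 0.146), the T shift (−0.149 to 0.246), ribosomal proteins (−0.0127 to 0.347), actin genes (−0.0653 to 0.249), hnRNP genes (−0.328 to 0.0617), GPI (−0.48 to 0.43) and HNRNPH1 (−0.19 to 0.72). Shift differences then ranged from −3.63 to −2.28 for log2 number, 4.57 to 7.17 for 3′ UTR, 15.4 to 24.8 for any exon, −19.6 to −13.2 for introns, 1.19 to 2.95 for lncRNA genes, −5.02 to −2.55 outside genes, 2.15 to 3.16 for pseudogenes and 2.94 to 4.88 for small RNA, and could not pass (exact permutation, smallest p possible 0.0667). Called genes (limma) numbered 0 to 2 higher and 0 to 2 lower.

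With the replicate block, 1 gene was called higher and 5 lower, and exons of every isoform gave 2 lower. Without scaling to list length, a choice made after seeing the data, 7 were higher and 41 lower (median of all genes −0.33), and log2 differences reversed for SRRM2 (−0.22), SON (−0.45), HNRNPH1 (−0.60), MKI67 (−0.56), NONO (−0.12) and ENSG00000280441 (−0.0310). Over all results and alternatives, 985 values kept their direction and call, 33 reversed, 100 no longer passed the test, 44 newly passed it and 10 overlaps moved beyond their counting interval. Many of these outcomes were fixed in advance. Shares of 3 against 3 lists cannot pass (smallest exact permutation p 0.1), nor can shift differences without 1 replicate (0.0667). The numbers therefore do not measure how robust the results are. Depth is unknown, and few clusters per gene limit what can be told for single genes.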
